A study of Mus musculus with 12 samples.

Results

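Among the genes that follicular B cells up-regulated in culture, *Cables1*, *Msrb3*, *B3gnt7*, *Plk2* and *Litaf* were among those whose rise differed most between WT and GPR174-deficient cells. They are 5 of the 12837 genes counted at both times. Their rows were taken by symbol. The genes had been chosen by the size of 2 measured values in these same libraries, the WT over KO difference after 4 h of culture and the genotype by culture interaction. Their values in these contrasts are therefore given as a description, with standard errors and no test.

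The cells were follicular B cells (CD21/35- CD23+), the main recirculating mature B cells of the spleen, sorted from male mice by flow cytometry. WT mice were *Gpr174* +/Y. GPR174-deficient (KO) mice were *Gpr174* -/Y and carried, in every cell of the body, an allele whose only coding exon was replaced by a tdTomato reporter. Some cells were frozen without culture (0 h) and others were first kept for 4 h in complete RPMI with serum and without a stimulus. Each genotype had 3 libraries at each of these times, 12 in all. With 3 mice per genotype, libraries of the same number at 0 h and 4 h may come from 1 mouse, but this was not stated, and the main fits do not pair them.

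GPR174 is a receptor for lysophosphatidylserine that couples to the G*α*s protein. G*α*s activates adenylyl cyclase, cyclic AMP (cAMP) then activates protein kinase A, and the kinase phosphorylates CREB, which binds the cAMP response element (CRE) in promoters. The 5 genes encode proteins of unrelated kinds. CABLES1 is an adaptor that links cyclin-dependent kinases to other proteins. MSRB3 is an enzyme that repairs oxidized methionine. B3GNT7 is a Golgi enzyme that adds *N*-acetylglucosamine to galactose in the making of poly-*N*-acetyllactosamine chains and keratan sulfate. PLK2 is a polo-like kinase whose gene responds early to growth signals. LITAF is a small membrane protein of late endosomes and lysosomes, first described as a factor induced by lipopolysaccharide.

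Of the 5 genes, 4 had a promoter entry in the RefSeq table used (GRCm38.p6). The 250 bases before each start were searched on both strands for the full CRE (TGACGTCA, a palindrome), for the shorter CRE core (TGACG, which the full element also holds) and for an AP-1 site (TGANTCA). The promoter of *Plk2* held the full CRE from 62 to 55 bases before the start. It is shown because this full element stands in 1.55% of the 32851 promoters of the same length. The window is chr13:110394794-110395043 on the plus strand, outside the annotated exons, and the capitals mark the CRE:
*Plk2* promoter: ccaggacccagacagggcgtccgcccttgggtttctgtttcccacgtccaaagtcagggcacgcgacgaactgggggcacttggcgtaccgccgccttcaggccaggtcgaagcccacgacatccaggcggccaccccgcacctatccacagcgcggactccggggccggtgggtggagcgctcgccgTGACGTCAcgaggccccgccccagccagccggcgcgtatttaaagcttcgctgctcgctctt
The *Msrb3* window held the CRE core once, 25 to 21 bases before the start, a motif found in 17.8% of promoters. The windows of *B3gnt7* and *Litaf* held neither form, and the AP-1 letters, found in 6.75% of promoters, stood in none of the 4. Of the windows of *Msrb3* and *B3gnt7*, 130 and 250 bases lie in annotated exons of longer transcripts, so these were searched but are not shown. The GC content of the 4 windows was 74.4% for *Msrb3*, 68.4% for *Plk2*, 65.6% for *Litaf* and 61.6% for *B3gnt7*, against a median of 52.4% over all promoters. A match or its absence describes these letters in this window only.

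Before the members, the libraries were checked. Library totals ran from 6098941 to 11618787 counts. *Gpr174*, the targeted gene, lay at 149.4 to 156.8 CPM, the count scaled to the size of its library, in the WT 0 h libraries and at 73.4 to 76.7 CPM in KO, and at 152.5 to 168.9 CPM in WT 4 h and 104.7 to 118.2 CPM in KO. The row also covers untranslated sequence outside the replaced exon. Marker sums cover only the markers counted at both times. The 7 follicular B cell markers summed to 5742 to 8787 CPM. The sums were 22.4 to 54.0 CPM for 4 of 8 macrophage, 2.76 to 11.6 CPM for 7 of 8 T cell and 2.5 to 12.3 CPM for 4 of 4 NK cell markers. The macrophage genes *C1qa*, *C1qb* and *C1qc* were tested at 0 h but are not in the sum, so it understates macrophage transcripts at 0 h. Follicular B cell markers were lower in WT 4 h (5742 to 6012 CPM) than in KO 4 h (7111 to 7302 CPM), and 4 of 7 were called lower in WT, against 10.9% of all genes called at 4 h in either direction. Neutrophil markers (2 of 4 counted at both times) summed to 17.9 to 101 CPM, erythroid markers (2 of 4) to 40.4 to 125 CPM and plasma cell markers (5 of 5) to 433 to 570 CPM. *Irf4* made up most of the plasma cell sum, with group means of 334 to 435 CPM. *Sdc1*, a plasma cell marker, was at 7.73 CPM in WT 0 h and 2.44 CPM in KO 0 h (log2 difference 1.64 ± 0.28, edgeR adjusted p of 0.0101). The other plasma cell markers were not called at 0 h. *Jchain* lay the other way, at 21.6 CPM in WT 0 h and 39.0 CPM in KO 0 h (-0.87 ± 0.28). *Prdm1* (-0.16 ± 0.29) was also lower in WT, and *Xbp1* (0.04 ± 0.07) and *Irf4* (0.08 ± 0.05) were slightly higher. Marginal zone B cell markers (5 of 5) summed to 1037 to 1270 CPM at 0 h and to 233 to 416 CPM at 4 h. Most of this sum at 0 h was *Cr2*. In WT 0 h *Dtx1* was at 106 CPM, *Cd1d1* at 34.4, *S1pr3* at 10.1 and *Cd9* at 1.91 CPM. *Cr2*, the gene for CD21/35, which the sort selected against, was at 1069 CPM in WT 0 h and 960 CPM in KO 0 h, and at 159 and 299 CPM at 4 h (log2 difference at 4 h -0.91 ± 0.10, edgeR adjusted p of 9.2e-06). *Fcer2a*, the gene for CD23, was at 1531 CPM in WT 0 h and 1334 CPM in KO 0 h, and at 528 and 983 CPM at 4 h. None of these lists had a measured marker at 0 in every library. Their part in the results was not tested. In bulk libraries, more cells with a transcript and more of it per cell cannot be told apart.

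*Cables1* and *Msrb3*, the pair that differed most, were close to undetected before culture. *Cables1* (chromosome 18, 11839220 to 11945630, plus strand, GRCm38) was counted in 10, 10 and 8 reads in WT 0 h replicates 1 to 3 and in 4, 8 and 6 reads in KO 0 h. After 4 h it was counted in 213, 185 and 358 reads in WT and in 14, 19 and 17 reads in KO. The genotypes overlapped at 0 h in reads, and at 4 h the lowest WT count was 185 and the highest KO count was 19. As a level, *Cables1* went from 0.987 ± 0.236 to 33.7 ± 4.45 CPM in WT and from 0.838 ± 0.34 to 2.14 ± 0.259 CPM in KO (SD, n = 3). By CPM, 11.0% of all genes lay below it in WT before culture and 58.1% after. KO cells also held more *Cables1* at 4 h than at 0 h, but reached 6.38% of the WT level (4.98% to 8.19% at 2 standard errors).

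*Msrb3* (chromosome 10, 120781096 to 120899101, minus strand) was thinner still at 0 h. The WT 0 h replicates held 3, 0 and 7 reads and those of KO held 4, 2 and 6. The count of 0 in WT replicate 2 allows up to 3.69 reads (upper bound of the exact Poisson 95% interval, which covers counting error only). At 4 h the WT replicates held 83, 121 and 202 reads, and the KO replicates 12, 11 and 6. All WT 4 h libraries lay above all others, an order whose share over all genes was not counted. At 4 h every WT library lay above every KO library in 14.4% of the genes tested. In CPM, WT went from 0.321 ± 0.313 to 17.9 ± 4.06 and KO from 0.542 ± 0.266 to 1.24 ± 0.388 (SD, n = 3). The KO 4 h level was 6.98% of that in WT (4.8% to 10.1%).

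**Figure D1:**
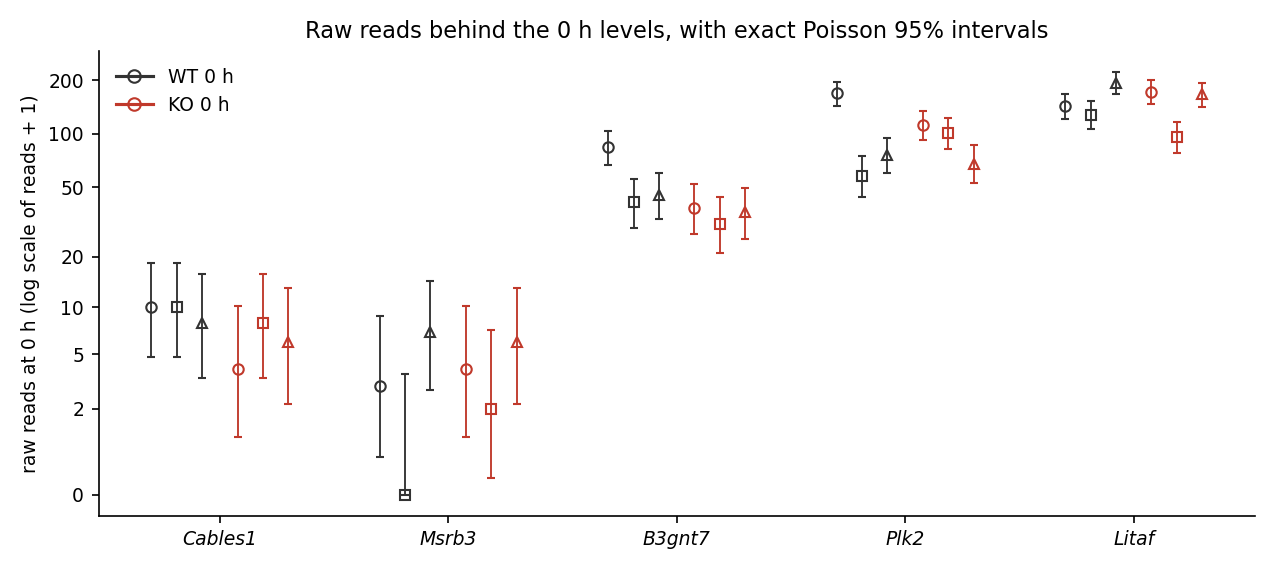
Raw reads of the 5 genes in the 0 h libraries, on a log scale of reads + 1, with exact Poisson 95% intervals that cover counting error only. Black marks WT and red marks KO, and circles, squares and triangles mark replicates 1, 2 and 3. *Cables1* and *Msrb3* rest on 0 to 10 reads in each library, while *Plk2* and *Litaf* rest on 58 to 193.

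*B3gnt7* and *Plk2* were measurable before culture, and their KO means were lower after it than before. *B3gnt7* (chromosome 1, 86302832 to 86307305, plus strand) had 84, 41 and 45 reads in the uncultured WT replicates and 38, 31 and 36 in those of KO. After culture the WT replicates had 134, 131 and 261 reads and the KO replicates 17, 20 and 19. Each KO 4 h library lay under each library of the other groups, and each WT 4 h library above. The share of all genes with this order of the groups was not counted. In WT its mean of 6.02 ± 2.99 CPM became 23.2 ± 3.78, and in KO 4.78 ± 0.181 CPM became 2.4 ± 0.172 (SD, n = 3). The cultured KO cells reached 10.3% of the WT mean (7.9% to 13.5%).

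*Plk2* (chromosome 13, 110395046 to 110400844, plus strand), whose promoter is shown above, was counted in 169, 58 and 76 reads in WT 0 h and 112, 101 and 68 in KO 0 h. At 4 h it was counted in 320, 294 and 572 reads in WT and 37, 79 and 49 in KO. In CPM the KO libraries went from between 9.35 and 15.0 at 0 h to between 4.87 and 9.44 at 4 h, a narrow overlap, while the WT libraries went from between 6.5 and 19.0 to between 45.9 and 60.3. The WT mean was 10.8 ± 7.15 CPM before culture and 52.6 ± 7.22 after, and the KO mean 12.8 ± 3.03 before and 6.99 ± 2.3 after (SD, n = 3). The KO level at 4 h was 13.4% of WT (10.5% to 17.0%).

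WT 0 h replicate 1 stood apart for this pair. It held 1.48 (log2) more *Plk2* than the mean of the other WT 0 h libraries, a gap that ranked 56th from the top of 11572 genes, and 1.09 more *B3gnt7*, which ranked 154th. In the same library the gap was 1.23 for the immediate early gene *Fos*, but 0.36 for *Junb*, 0.30 for *Ier2* and 0.21 for *Nr4a1*, also of that class, 0.34 for *Crem* and 0.03 for *Litaf*. Without that library the culture rise of *Plk2* in WT was 2.99 in place of 2.31 (log2), and its genotype difference at 0 h was -0.95 ± 0.23 in place of -0.27 ± 0.32. For *B3gnt7* the 0 h difference went from 0.31 to -0.16 and the interaction from 2.96 to 3.43. What sets this library apart was not tested.

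*Litaf* (chromosome 16, 10959275 to 11066157, minus strand) had the highest mean of the 5 in each group. The uncultured replicates had 143, 128 and 193 reads in WT and 171, 96 and 166 in KO. The cultured replicates had 745, 701 and 1222 reads in WT and 151, 206 and 171 in KO. The WT 4 h libraries lay far above, and the libraries of the other groups overlapped. The WT mean went from 15.9 ± 1.46 to 119 ± 9.64 CPM, and that of KO from 19.5 ± 4.66 to 22.6 ± 2.43 (SD, n = 3). The share left in cultured KO cells was 18.9% (16.6% to 21.5%), the highest of the 5.

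**Figure D2:**
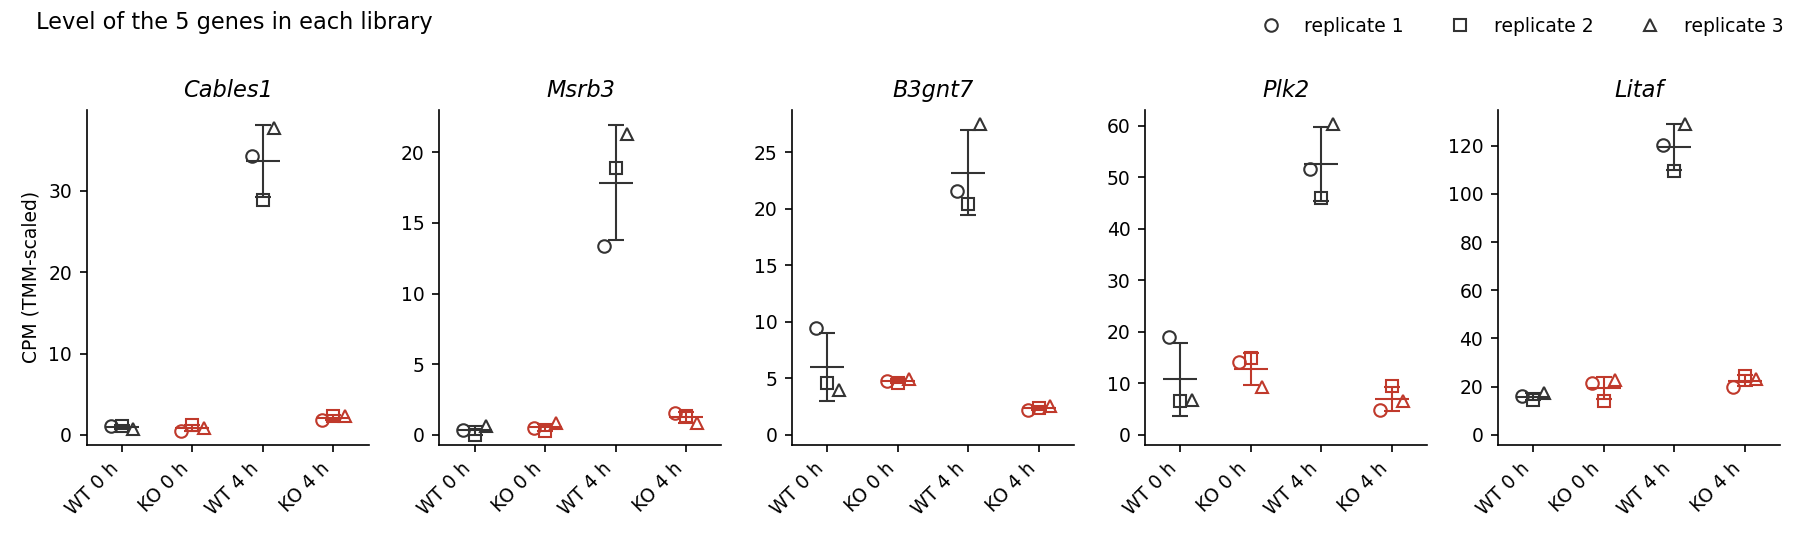
Level of each gene in CPM on TMM-scaled library sizes, with a separate linear axis for each gene. Symbols mark replicates 1 to 3, black stands for WT and red for KO, and the horizontal line with bars gives the mean and SD of 3 libraries. The WT 4 h libraries lie above all others in every panel. In 14.4% of the genes tested every WT 4 h library lay above every KO 4 h library. The share with WT 4 h above the 0 h libraries as well was not counted. Only in *Plk2* and *B3gnt7* do the KO 4 h means (6.99 and 2.4 CPM) lie under the KO 0 h means.

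Levels of different genes were compared per length of exon, as CPM per kilobase (RPKM). In RPKM the WT 4 h means were 23.2 ± 1.87 for *Litaf*, 11.7 ± 1.61 for *Plk2*, 8.77 ± 1.16 for *Cables1*, 5.61 ± 0.913 for *B3gnt7* and 4.41 ± 1.0 for *Msrb3* (SD, n = 3). *B3gnt7* and *Msrb3* overlapped between libraries there, and the other neighbours did not. In WT 0 h the order was *Litaf* (3.08), *Plk2* (2.4), *B3gnt7* (1.46), *Cables1* (0.257) and *Msrb3* (0.0793). *Plk2* overlapped between libraries there with both *Litaf* and *B3gnt7*, and *B3gnt7* lay above *Cables1* in place of below it. In KO 4 h *B3gnt7* (0.581) and *Cables1* (0.558) could not be ordered, since their libraries overlapped.

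The genotype contrast at 4 h asked how much more of each transcript WT cells held after culture. Of 11123 genes tested with edgeR's quasi-likelihood test, 10.9% were called at an adjusted p under 0.05. In 14.4% every WT library lay above every KO library, as in all 5 genes here, which the choice of the genes had fixed. The log2 difference was 3.97 ± 0.18 for *Cables1*, 3.84 ± 0.27 for *Msrb3*, 3.27 ± 0.19 for *B3gnt7*, 2.90 ± 0.17 for *Plk2* and 2.40 ± 0.09 for *Litaf* (± standard error). Among called genes ranked by this value they stood at places 2, 3, 7, 11 and 13. *Eng* (4.79 ± 0.46), at 5.22 CPM in WT, stood first, and *Crem* (3.04 ± 0.12), which encodes a CREB family repressor and activator, stood at place 9. *Fosl2* (2.68), at place 12, lay just above *Litaf*, and the next genes outside the 5 were *Il1r2* (2.38), *Slc15a2* (2.35) and *Bambi* (2.26).

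At 0 h, 0.987% of 11345 genes were called. *Cables1* and *Msrb3* had too few reads for the filter on low counts and could not be tested there. Of the other members *B3gnt7* differed by 0.31 ± 0.31, *Plk2* by -0.27 ± 0.32 and *Litaf* by -0.31 ± 0.17 (log2, WT over KO). Pooled over the 3 libraries of a group and scaled by depth, *Cables1* reads in WT were 1.18 times those in KO (exact 95% interval 0.628 to 2.26) and *Msrb3* reads 0.63 times (0.244 to 1.59). These intervals cover counting error only, and a difference inside them was not detectable at this depth.

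The culture contrasts asked how each gene moved from 0 h to 4 h within a genotype. Culture changed 33.1% of 11572 genes in WT and 23.3% in KO at an adjusted p under 0.05. *Cables1* and *Msrb3* entered this fit through the WT 4 h libraries alone. In WT, *Msrb3* rose by 5.65 ± 0.41 and *Cables1* by 5.10 ± 0.23 (log2), the largest rises among called genes. *Litaf* (2.91 ± 0.12, place 23), *Plk2* (2.31 ± 0.27, place 46) and *B3gnt7* (1.97 ± 0.23, place 67) stood further down. These rises are part of the interaction that the genes were chosen on, so their places are a description and no test. From pooled reads, *Msrb3* was 53.3 times as high at 4 h (28.7 to 112) and *Cables1* 35.5 times (24.3 to 53.7).

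In KO cells the 5 genes did not behave as a set. The log2 change was 1.37 ± 0.36 for *Cables1* and 1.16 ± 0.57 for *Msrb3*, with pooled reads at 2.61 (1.5 to 4.76) and 2.27 (1.12 to 4.89) times those of 0 h. It was 0.20 ± 0.14 for *Litaf*. It was -0.99 ± 0.32 for *B3gnt7* and -0.86 ± 0.33 for *Plk2*, with pooled reads at 0.502 (0.356 to 0.7) and 0.552 (0.453 to 0.672) times. These KO changes are part of the interaction that the genes were chosen on, so calls on them are a description and no test. In the fit over all genes, which called 23.3%, *Cables1* and *B3gnt7* passed the threshold, and *Msrb3*, *Plk2* and *Litaf* did not. Leaving out any 1 of the KO libraries took *B3gnt7* back over the threshold, leaving out KO 0 h replicate 1 did so for *Cables1*, and *Plk2* passed it in 5 of 18 alternatives. Among the 261 other genes that culture raised over 2-fold in WT, 30 (11.5%) had a KO change below 0, and 2 were called and lowered in KO. In the same 261 genes the median change was 1.44 in WT and 0.71 in KO, and 47.1% were called and raised in KO. No test was made of the 5 genes against these others.

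**Figure D3:**
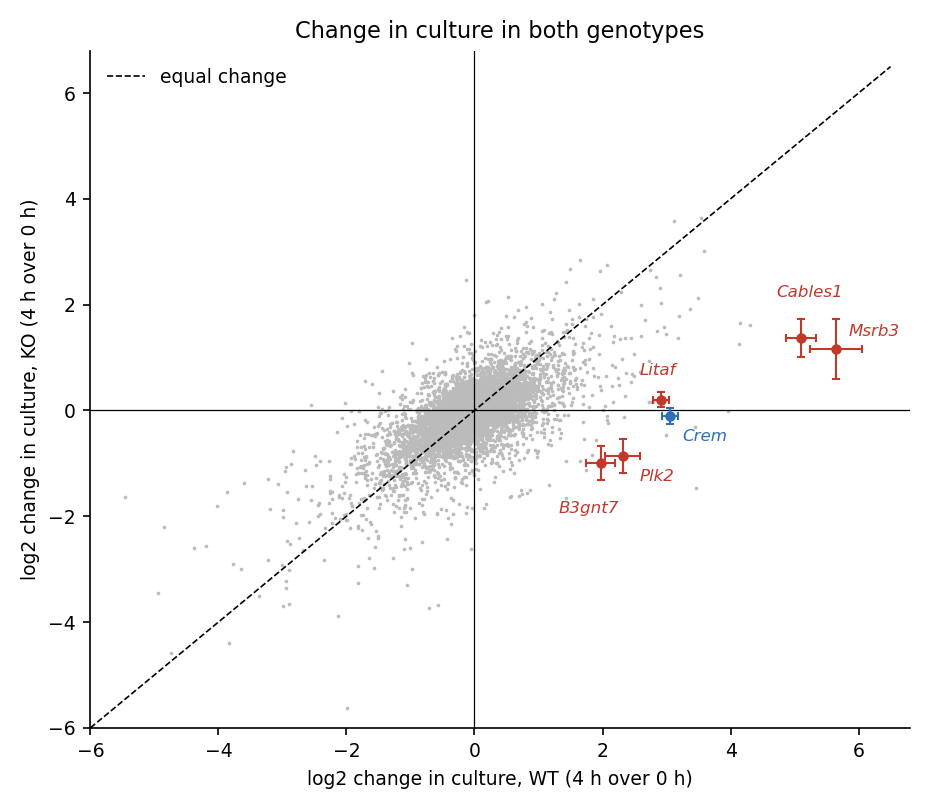
Log2 change from 0 h to 4 h in WT (horizontal axis) against KO (vertical axis) for 11572 genes (gray), with the 5 genes in red and *Crem* in blue, and bars of 1 standard error. The dashed line marks equal change. *Cables1* and *Msrb3* lie right of all other genes and above the horizontal zero line, *Litaf* and *Crem* lie near that line, and *B3gnt7* and *Plk2* lie under it.

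The interaction, the WT change minus the KO change, was called in 6.39% of 11572 genes. It was 4.49 ± 0.85 for *Msrb3*, 3.74 ± 0.51 for *Cables1*, 3.17 ± 0.43 for *Plk2*, 2.96 ± 0.39 for *B3gnt7* and 2.71 ± 0.19 for *Litaf*, at places 2, 4, 5, 8 and 10 among called genes. *Crem* (3.15 ± 0.20) stood at place 6, and *Fosl2* (2.68), *Dusp5* (2.60) and *Itgb1bp3* (2.57) came next after *Litaf*. The standard errors of *Msrb3* and *Cables1* were the widest of the 5, in step with their reads at 0 h. WT 4 h replicate 3, the deepest WT 4 h library, was the highest of its group in 5 of 5 members, against 32.6% of the 261 other raised genes and 30.8% of all genes.

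Genes that overlap the members in the annotation (GENCODE M21) were looked up, because the strand setting of the counts was not given. Rows of 3 such genes were counted, each on the strand opposite to the member. Without strand, reads from exonic bases that both genes share cannot be told apart. *Gm6277* shares 1314 of its 4421 exonic bases with *Cables1*. It held 10, 24 and 24 reads in WT 4 h and 3, 0 and 1 in KO 4 h, with a difference of 3.81 ± 0.65 (edgeR adjusted p of 0.001). *Gm15910* lies within *Msrb3* and shares 0 exonic bases with it. It held 28, 38 and 47 reads in WT 4 h and 5, 10 and 16 in KO 4 h, a difference of 1.93 ± 0.36 (edgeR adjusted p of 0.0021), and its interaction of 2.00 ± 0.63 was not called (edgeR adjusted p of 0.0654). *Snn* shares 95 exonic bases with *Litaf* and moved the other way, by -0.59 ± 0.07 between genotypes at 4 h (edgeR adjusted p of 4.26e-05) and by -0.84 ± 0.06 in WT culture (edgeR adjusted p of 1.25e-09).

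Of 17 listed paralogs, 14 could be tested at 4 h. By edgeR 0 were called higher in WT and 2 lower, as by DESeq2, against 10.9% of all genes called in either direction, and 8 had an unadjusted p under 0.05, 3 of them higher in WT. Their median log2 difference was 0.07 against 0.00489 over all genes. *Cables2* differed by 0.07 ± 0.07, and was at 114 CPM in WT 4 h and 108 CPM in KO 4 h. The other methionine sulfoxide reductases *Msra* (0.0019 ± 0.17), *Msrb1* (0.24 ± 0.16) and *Msrb2* (0.06 ± 0.27) were not called. *Cdip1*, which encodes a LITAF-domain protein, differed by 0.23 ± 0.07 and was not called (edgeR adjusted p of 0.0591). In culture it rose by 0.50 ± 0.08 in WT and 0.43 ± 0.08 in KO, and both changes were called (edgeR adjusted p of 1.94e-05 and 0.000298).

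Among relatives of *B3gnt7*, *B3gnt2*, which extends poly-*N*-acetyllactosamine chains, was lower in WT at 4 h (-0.43 ± 0.06, edgeR adjusted p of 0.00026). *B3gnt5*, which starts lacto-series glycolipids, was at -0.24 ± 0.06 (edgeR adjusted p of 0.0136), a call lost when any KO 4 h library was left out, with adjusted p up to 0.0646. *B3gnt8* (-0.35 ± 0.13), *B3gntl1* (-0.38 ± 0.12), *B3gnt3* (-0.89 ± 0.38) and *B3gnt9* (0.58 ± 0.33) were not called, and *B3gnt4* did not pass the filter. The polo-like kinase genes *Plk1* (0.89 ± 0.30, edgeR adjusted p of 0.0732), *Plk3* (0.52 ± 0.17, 0.0679) and *Plk4* (0.11 ± 0.10, 0.563) were not called. *B3gnt6* and *Plk5* were not analysed here.

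**Figure D4:**
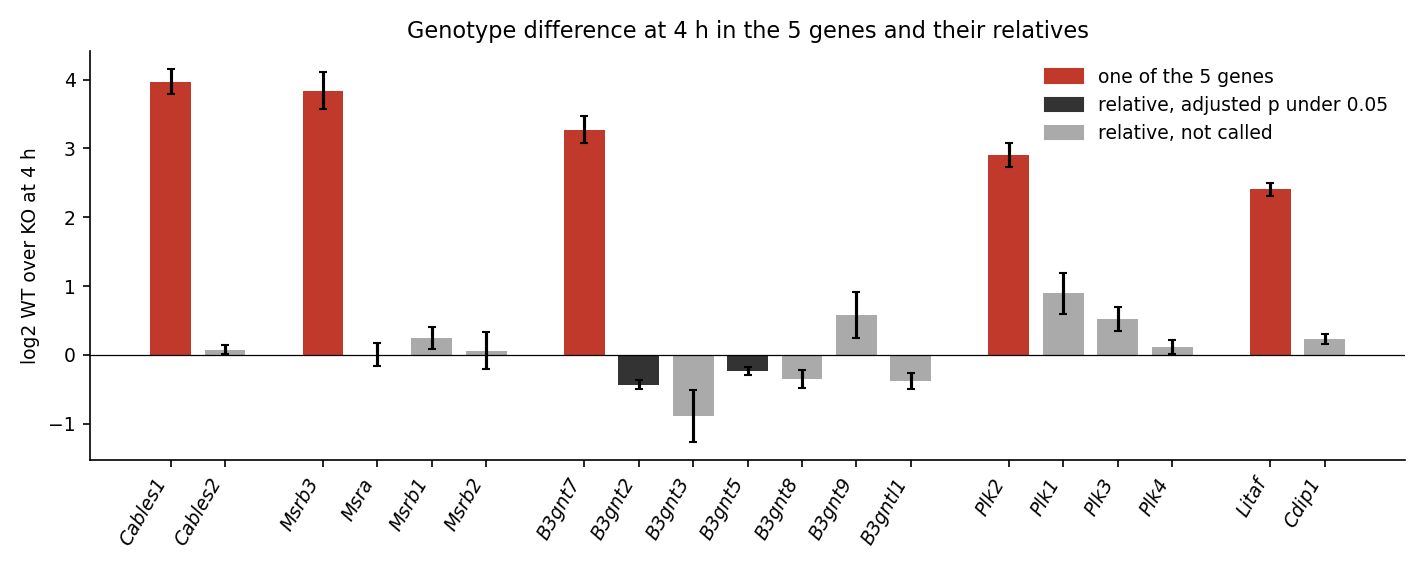
Log2 difference WT over KO at 4 h for the 5 genes (red) and their tested relatives, with bars of 1 standard error and bar heights from 0. Dark bars mark the relatives with an edgeR adjusted p under 0.05, *B3gnt2* (-0.43) and *B3gnt5* (-0.24), and gray bars mark those not called. No relative reaches the smallest value among the 5 genes, 2.40 for *Litaf*. The 5 genes were chosen for the size of this difference, so this is no test of the relatives.

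Genes that work beside each of the 5 were counted next, on lists of 6 or 7 tested genes, so short that a count near the 10.9% called over all genes at 4 h says little. In the order *Cables1*, *Msrb3*, *B3gnt7*, *Plk2* and *Litaf*, 2 of 7, 0 of 7, 3 of 6, 1 of 7 and 0 of 6 were called. Of 7 genes for CABLES1 partners, *Cdk5r1*, an activator of the kinase CDK5, was higher in WT at 4 h (1.02 ± 0.23, edgeR adjusted p of 0.00742). It fell in KO culture (-0.87 ± 0.21) and changed by 0.07 ± 0.19 in that of WT, and the interaction of 0.94 ± 0.28 was not called (edgeR adjusted p of 0.0535). *Wee1*, the kinase that holds back mitosis, was lower in WT (-0.63 ± 0.19, edgeR adjusted p of 0.0437), a call lost in 7 of 12 alternatives, DESeq2, the replicate block and the fits without any of the KO 4 h libraries or WT 4 h replicates 1 and 3 (adjusted p up to 0.152). *Cdk5* was not called at 4 h but had an interaction of -0.64 ± 0.16 (edgeR adjusted p of 0.0205), which was lost without replicate 1 or 3 of the KO groups (0 h and 4 h, respectively) or replicate 2 of WT 0 h (up to 0.0687). *Cdk2*, *Abl1*, *Tdrd7* and *Trp53* differed by -0.07 to 0.06 (log2) and were not called. Of 7 genes of methionine repair, which include the thioredoxins that recharge the reductases, 0 were called at 4 h by edgeR or DESeq2, and 0 had an unadjusted p under 0.05.

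Of 6 tested genes for the making of *N*-acetyllactosamine, 2 were called higher and 1 lower in WT at 4 h. Over all genes 10.9% were called there in either direction, and these lists are short. *B4galt5*, a galactosyltransferase, was higher by 0.67 ± 0.07 (edgeR adjusted p of 8.47e-06). It was at 103 ± 4.83 CPM in WT 4 h and 64.5 ± 3.15 CPM in KO 4 h, against 112 and 115 CPM at 0 h. It fell in KO culture (-0.84 ± 0.07, edgeR adjusted p of 8.18e-09). *B4galt1* was higher by 0.22 ± 0.06 (edgeR adjusted p of 0.0378), which was lost in 9 of 12 alternatives, DESeq2, the replicate block and the fits without any of the KO 4 h libraries or WT 4 h replicates 1 and 3 among them (up to 0.157). The gene called lower was *B3gnt2*. Of 7 genes for PLK2 targets and centriole partners, 1 was called. *Sipa1l1*, a RapGAP that PLK2 phosphorylates in neurons, was at 281 ± 2.47 CPM in WT 4 h and 141 ± 5.63 CPM in KO 4 h (log2 difference 1.00 ± 0.06, edgeR adjusted p of 1.55e-08). Of 6 genes for LITAF partners in endosomal sorting, 0 were called at 4 h by edgeR, against 10.9% of all genes. DESeq2 also called 0, and 0 had an unadjusted p under 0.05.

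Known cAMP-responsive genes were compared because GPR174 signals through G*α*s. Of 20 listed, 19 were tested at 4 h and 19 were called higher in WT, against 10.9% of all genes called, with a median log2 difference of 1.41 against 0.00489 over all genes. The whole list was chosen with earlier results of these data known, and 11 of 20 had been picked from these same libraries. The count is therefore not independent evidence of the direction of any part of the list. *Crem* (3.04 ± 0.12), *Fosl2* (2.68 ± 0.25), the kinase gene *Sik1* (2.25 ± 0.09) and *Cd86* (2.15 ± 0.09), which encodes a costimulatory ligand, led the list. None exceeded the 3.27 of *B3gnt7*, a gene chosen for the size of this difference. *Klf4* (0.99 ± 0.30, edgeR adjusted p of 0.0457) lost its call in 9 of 12 alternatives, the replicate block among them (up to 0.194), and *Fos* (1.66 ± 0.37) without WT 4 h replicate 3 (0.0532). The culture changes differed within the list. In WT 12 of 18 rose and 3 fell, where 33.1% of all genes were called, and in KO 5 rose and 6 fell, where 23.3% were called. *Sik1* rose by 0.73 ± 0.08 in WT and fell by 1.51 ± 0.10 in KO. *Fos* was lower after culture in both genotypes (-1.82 ± 0.32 in WT, -2.94 ± 0.40 in KO).

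The genes whose levels ran most like those of the 5 were found by the correlation of log2 CPM with the mean standardized level of the 5 over the 12 libraries. *Crem* came first (Pearson r of 0.994), then *Cd86* (0.992), *Cytip* (0.989), *Gpr132* (0.989), *Gpr171* (0.984), *Syngr2* (0.982), *Cyth1* (0.982), *P2ry10* (0.981), *Sipa1l1* (0.979) and *Kdm6b* (0.978). The libraries fall into 4 groups, so such values mostly follow the gap between WT 4 h and the others, and they are a description. Single members had different nearest genes. *Cables1* ran most like *Stat4* (0.992), *Lamc1* (0.987) and *Ugcg* (0.983), *Msrb3* like *Tgif1* (0.983), *Trib1* (0.97) and *Lamc1* (0.97), and *Litaf* like *Cyth1* (0.983), *Inpp5d* (0.983) and *Syngr2* (0.982). *B3gnt7* ran most like *Sla* (0.99), *Ptprj* (0.966) and *Vps37b* (0.96). *Plk2* was matched less closely, by *Abca1* (0.953), *Trp53inp2* (0.952) and *Gprc5a* (0.946).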

How the data were processed

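Follicular B cell RNA was amplified with the NuGEN Ovation RNA-seq System V2, built into libraries with KAPA Hyper reagents and sequenced as 50-base single-end reads on a HiSeq2500. Reads were aligned to mm10 with STAR and counted per gene with HTSeq. Versions, annotation and strand setting were not given in the sources used here. The authors deposited raw read counts, unnormalized, in a table of 13269 genes for 0 h and another of 13142 for 4 h. The smallest row sum was 10 reads, so lower genes are missing. Groups came from the labels.

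Counts were filtered (filterByExpr), TMM-scaled and tested with edgeR 4.0.16 (glmQLFit, glmQLFTest) in R 4.3.3, with Benjamini-Hochberg adjustment over all genes tested and a call at an adjusted p under 0.05. Genotype was tested within each time on 6 libraries, and culture and the interaction on 12 libraries over the 12837 shared genes. Standard errors are the log2 change divided by the root of the F statistic. CPM used TMM-scaled totals of all 12 libraries, and RPKM divided these by the union of GENCODE M21 exons. Shared profiles used log2 CPM with a prior count of 2. Exact Poisson and binomial 95% intervals cover counting error only and leave out the spread between libraries. Reads carried no molecular identifiers, so copies made in amplification were counted as separate reads and even these intervals may be too narrow. Replicate pairs differed by more than sampling noise (chi-square per degree of freedom 1.947 to 9.319). The fits were also run on simulated data, but no result of that run is given or used here. It is not offered as a check of genes with few reads, such as *Cables1* and *Msrb3* at 0 h.

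The members and gene lists were chosen with earlier results of these data known. Named genes were the members, *Crem*, *Gpr174*, measured relatives, called list genes, the genes ranked next and the most similar profiles. The immediate early genes beside WT 0 h replicate 1, *Cr2*, *Fcer2a*, *Sdc1*, the overlapping genes, *Eng* and the list genes not called were named after their values were seen. *Msrb1*, *B3gnt9* and *Cdip1* are listed in the tables as *Sepx1*, *B3gnt9-ps* and *5730403B10Rik*. Alternatives were DESeq2 1.42.0, other scalings, no filter, other sample sets, a replicate block and leaving out each library.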

Additional observations from a re-analysis of the deposited data

Results flagged for a closer look

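The culture change differed between WT and KO in the genes below by the interaction term of the edgeR fit, which is what brought them here. The 5 members were chosen on this term, at 4.489 for *Msrb3*, 3.736 for *Cables1*, 3.175 for *Plk2*, 2.959 for *B3gnt7* and 2.706 for *Litaf* (log2, WT change minus KO change), so their values are a description.

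Of the genes listed beside them, the cAMP-responsive *Crem* (3.153), *Fosl2* (2.679), *Cd86* (2.45), *Sik1* (2.242), *Pde4d* (2.089), *Pde3b* (1.414), *Junb* (0.9346), *Nr4a1* (0.878), *Ier2* (0.8309), *Gadd45a* (0.8088), *Per1* (0.5849) and *Pde4b* (0.4084) changed more positively in WT. The PLK2 substrate gene *Sipa1l1* (0.8821) and the galactosyltransferase gene *B4galt5* (0.7173) did so too. *Fosl2* lost its call without KO 0 h replicate 1 (edgeR adjusted p of 0.0525). *Cdk5* (-0.6369), *B3gnt5* (-0.3433) and *B3gnt2* (-0.3389) changed more negatively in WT, and the call of *B3gnt2* was lost without KO 4 h replicate 1 or WT 4 h replicate 3 (edgeR adjusted p up to 0.0587).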

How the results depend on the processing

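Of 360 values of the members under alternative settings, 351 moved by less than the spread between replicates and 9 by more, and none of the called values changed sign. With library totals only, the KO culture change of *B3gnt7* was -0.9002. Leaving out 1 library gave an interaction of 3.424 to 4.011 for *Cables1* (lowest without KO 0 h replicate 2), 3.974 to 5.445 for *Msrb3* (highest without WT 0 h replicate 3, as was its WT culture rise of 5.136 to 6.606), 2.72 to 3.431 for *B3gnt7* and 2.91 to 3.848 for *Plk2*. The WT culture rise of *Plk2* then ran from 2.049 to 2.987, and the genotype difference at 0 h from -0.1613 to 0.5441 for *B3gnt7* and from -0.9507 to -0.01561 for *Plk2*. WT 0 h replicate 1 gave the extreme value in each of these for *Plk2* and *B3gnt7* that moved. Over all genes, 26 to 161 were called at 0 h (26 and 55 when KO 0 h replicates 1 and 3 were left out, 50 and 59 for WT 0 h replicates 2 and 3) and 776 to 1361 at 4 h (776 without KO 4 h replicate 1). Of the relatives 1 to 3 were called, with 1 left without KO 4 h replicate 1 or replicate 3. The cause was not tested. The 10 genes most like the mean of the members were the same 10 with a prior count of 0.5. The nearest genes of single members were less stable. With that prior count *Msrb3* ran most like *Tspan13*, *Spata6* and *Tgif1*, and *Nsf* took the place of *Gprc5a* for *Plk2*.

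Same-numbered libraries of 0 h and 4 h were correlated in their deviations from the group means. The values were 0.126, 0.0718 and 0.117 in WT and -0.0402, 0.145 and 0.152 in KO. In 5 of these 6 comparisons the library correlated best with its own number. Shared mice were not stated, so the main fits did not pair the numbers. The replicate block joined all libraries of the same number, WT and KO alike, although these are different mice. It therefore does not test a pairing of 0 h and 4 h libraries. WT and KO libraries of the same number at 4 h correlated by 0.0199, -0.0986 and 0.0728. With the replicate block the 4 h differences were 3.955 for *Cables1*, 3.819 for *Msrb3*, 3.255 for *B3gnt7*, 2.904 for *Plk2* and 2.401 for *Litaf*. It called 138 genes at 0 h and 1062 at 4 h. At 0 h, 4 to 10 reads for *Cables1* and 0 to 7 for *Msrb3* in a library limit every ratio that uses them.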
